A study of Macaca fascicularis with 8 samples.

Results

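Lung chromatin was described from 1 single-cell ATAC-seq library and set beside the libraries of colon, heart and uterus. All 4 organs came from 1 healthy female cynomolgus monkey, 4 years old, and the labels give their condition as Normal, with no allele or treatment that separates them. A barcode was kept if its counts in peaks summed to 1000 or more, which left 13117 of 13117 lung barcodes, 12404 of 12404 from colon, 5220 of 5693 from heart and 5770 of 6473 from uterus. The peak lists of the 4 libraries, joined wherever 2 peaks shared 1 bp or more, formed 162675 regions. Among them 80832 held a lung peak and 23078 held a peak in all 4 libraries. The series holds 8 libraries in all, and the other 4 were not used here. Each organ had 1 library, so organ and library cannot be told apart, and no test between organs was possible.

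The lung exchanges gas across a thin layer of flat epithelial cells and capillary endothelium, and other epithelial cells of the air sacs secrete the surfactant that keeps them open. Its airways are lined by ciliated and secretory cells, and fibroblasts, smooth muscle, resident macrophages and lymphocytes fill the rest. In ATAC-seq, the Tn5 transposase cuts DNA where nucleosomes leave it open, so a peak marks a stretch that can carry a promoter, an enhancer or another regulatory element. Broad stretches of open chromatin often surround the genes that a cell type uses most.

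The kept barcodes held 102697781 counts of cut ends in lung, 110748462 in colon, 52904154 in heart and 41721017 in uterus, with medians of 6466 (uterus) to 7446 (colon) counts per barcode and 6595 in lung. Levels are given as CPM, the counts in a region per 1000000 counts in all peaks of the library. Intervals are exact 95% Poisson or binomial intervals on fragments or barcodes, and they cover counting error only. In summed libraries of this kind, fewer cells of a type and less open chromatin per cell cannot be told apart. Of the lung barcode sequences, 428 (3.26%) also occurred in at least 1 of the other 3 libraries. The overlap that chance would give was not computed, so this share is no measure of mixing between libraries. The lung label could not be checked against marker genes, since genes could be placed only in the windows of EGFL7 and JCHAIN.

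A limit of the files stands beside every level below. Peaks were called in each library separately, and counts exist only inside a library's own peaks. The CPM of a joined region therefore also reflects how many of its bases that library's peaks covered, and covered lengths are given for the regions the results turn on.

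Most lung regions were either shared by all 4 organs or found in lung alone. Of the 80832 lung regions, 23078 (28.6%) had a peak in all 4 libraries and 23568 (29.2%) in lung alone. These groups differed in weight, since the regions shared by all 4 held 70.7% of the lung counts and the lung-only regions 9.90%. Among the remaining lung regions, 13561 were shared with colon alone, 5863 with heart alone and 857 with uterus alone, and 10685 with both colon and heart.

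**Figure D1:**
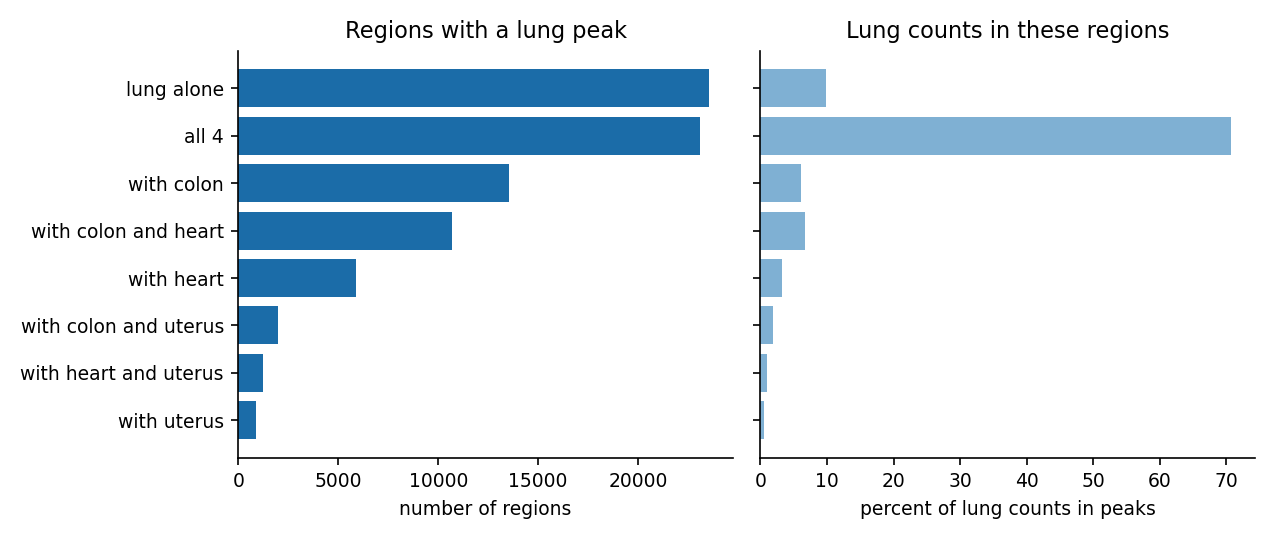
Number of joined regions with a lung peak (left) and percent of lung counts in them (right), by the other organs that also had a peak. The lung-only and the 4-organ groups hold 23568 and 23078 regions, but 9.90% and 70.7% of the lung counts.

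The share of regions found in a single organ was 29.2% in lung, 29.5% in heart, 47.7% in colon and 11.1% in uterus. Lung and heart therefore stood close to each other, between the library with the most peaks, colon, and the library with the fewest, uterus. Counted over pairs, lung shared 49322 regions with colon, which were 61.0% of the lung regions and 46.3% of the colon regions. It shared 40848 with heart (50.5% of lung and 61.5% of heart regions) and 27155 with uterus (33.6% and 77.7%).

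Across the 23078 regions with a peak in all 4, lung was seldom the extreme organ. It ranked first in CPM in 3190 regions (13.8%), second in 7818 (33.9%), at rank 3 in 8672 (37.6%) and last in 3398 (14.7%). The median region had 21.2 CPM in lung, 16.4 in colon, 22.6 in heart and 24.99 in uterus. The log2 ratio of lung to the mean of the other 3 had a median of -0.08, with 5% of regions below -1.65 and 5% above 1.01. Without uterus the median was 0.05, so its sign rested on which organs lung was set against.

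The lung profile was about equally like each of the other 3. Spearman's rho of log2(CPM + 1) across these regions was 0.83 with colon, 0.829 with heart and 0.813 with uterus. Between the other organs it was 0.718 for colon and heart, 0.73 for colon and uterus and 0.811 for heart and uterus. These are descriptions over regions that share library, depth and peak calls, with no replicate behind them. The pairs differed more in their tails. Lung was at least 2-fold above colon in 5479 regions (23.7%) and below it in 1304 (5.65%). Against heart these were 1883 (8.16%) and 2902 (12.6%), and against uterus 2439 (10.6%) and 3710 (16.1%). CPM was taken over all peaks, and these regions held unequal shares of the counts. The shares were 70.7% in lung, 61.5% in colon, 71.8% in heart and 88.3% in uterus, which enters these differences.

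A region was called lung-high when its lung CPM was at least 2-fold above that of each other organ, and lung-low when it was at least 2-fold below each. There were 350 lung-high regions (1.52% of the 23078) and 403 lung-low regions (1.75%). Under the same rule, colon was high in 1.77%, heart in 3.32% and uterus in 5.82% of regions, and they were low in 16%, 2.56% and 4.75%, from the same 4 libraries. On this scale lung was high on its own in the fewest regions of the 4, but colon had fewer at matched covered length (1 against 3) and per covered kb (3 against 6), both defined below. With CPM taken over the 23078 regions alone, lung was high in 413 regions and heart in 927. Colon was then high in 713 in place of 408, and uterus in 749 in place of 1342. Low regions were then 410 in lung, 2752 in colon, 542 in heart and 1454 in uterus. With CPM over all peaks, 42 lung-high (0.182%) and 144 lung-low regions (0.624%) were left at 4-fold. By share of barcodes with a count in place of CPM, 133 regions were lung-high and 403 lung-low at 2-fold. The last region outside the lung-high rule had a ratio of 1.997 to its highest other organ and the first inside it 2.005.

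Covered length moved with both calls. In lung-high regions the lung peaks covered a median of 100% of the region, against 47.9% for colon, 30.7% for heart and 17.4% for uterus. In lung-low regions the lung peaks covered a median of 21.01%, and the lung peak was the shortest of the 4 in 86.6% of them. Across 23071 regions with a lung count, the log2 ratio of lung CPM to the mean of the others followed the log2 ratio of covered length, with Spearman's rho of 0.824. Of the 1530 regions where lung covered at least 2-fold the mean length of the others, 299 were lung-high. Of the 20793 regions within 2-fold in length, 51 were. In these files a higher lung level and a longer lung peak thus mostly came together.

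**Figure D2:**
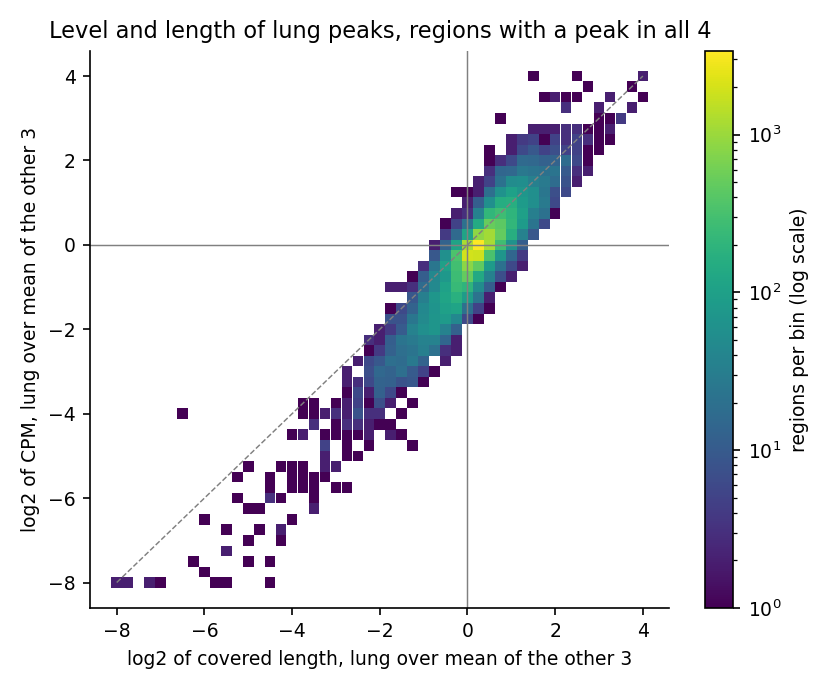
Each square is a bin of regions with a peak in all 4 libraries, placed by the log2 ratio of covered length (x) and of CPM (y), lung over the mean of the other 3, with values beyond -8 and 4 drawn at those limits. The dashed line marks equal ratios. Both ratios rise together (Spearman's rho 0.824), and where lung covers less, most bins lie below the line.

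Where the peaks of each library covered at least 50% of the longest covered length, few calls were left. Of 11147 such regions, 3 were lung-high (0.0269%) and 20 lung-low (0.179%). With CPM divided by the covered length in kb, 6 regions were lung-high and 39 lung-low over all 23078. Matching the length cannot separate peak calling from openness, since a region that is more open in lung can also be called over a longer stretch, and 299 of the 350 lung-high regions lay where lung covered at least 2-fold the mean length of the others. The part of peak calling in the named regions was not tested.

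The 10 lung-high regions with the largest ratio to the highest other organ ran from 6.81-fold to 13.3-fold in CPM. In fragments, which count a pair of cut ends once and a lone end as a full fragment, the same 10 ratios ran from 4.33 to 11.8. A lone end thus weighs more in fragments than in CPM, and a fragment interval does not bound a CPM ratio. All 10 had their longest covered length in lung, and in 3 of the 10 lung was also highest per covered kb.

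The largest ratio was at chr18:128549-129632, a region of 1084 bp. Lung had 48.9 CPM (interval 47.0 to 50.9), colon 0.768 (0.575 to 1.004), heart 2.59 (2.09 to 3.17) and uterus 3.69 (3.07 to 4.40). The 4 intervals place lung far above the others, and no other organ came within 13.3-fold of it in CPM, or 8.69-fold (7.25 to 10.5) in fragments. It was also highest per covered kb, at 45.1 CPM in lung against 9.46 in uterus, the next organ. A count was present in 13.3% of lung barcodes (12.7% to 13.9%), against 0.411% in colon and 2.08% in uterus.

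The strongest lung-high domain was chr8:22187428-22216168, a single lung peak of 28741 bp. Lung had 462.6 CPM (456.7 to 468.5), colon 14.5, heart 20.98 and uterus 36.8. Inside the same stretch the peaks of the other organs covered 1880 bp in colon, 1558 bp in heart and 1391 bp in uterus. The domain was 12.6-fold above uterus in CPM and 11.8-fold (11.01 to 12.6) in fragments. Per covered kb the order turned, with 16.1 CPM in lung and 26.4 in uterus. A count was seen in 40.4% of lung barcodes and in 6.18% to 12.3% of those of the other 3, and with every barcode thinned to 500 fragments these shares were 16.5% and 0.814% to 1.77%.

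The regions at ranks 3, 5 and 9 all lay on chromosome 16. At chr16:76819543-76836582, lung had 136 CPM over 16660 covered bp, against 7.99 in colon, 11.1 in heart and 2.23 in uterus. At chr16:54174439-54181874 it had 70.2 CPM over 7436 bp, against 7.87, 5.10 and 5.58. At chr16:74133710-74135451 it had 15.9 CPM over 1742 bp, against 2.18, 0.0189 and 1.49. All 3 were longer stretches in lung, and in the last the heart peak was 1 bp long, so its heart level has no weight. Uterus peaks covered 137, 293 and 86 bp of the 3 regions. Per covered kb uterus was above lung in each (16.3, 19.1 and 17.3 CPM against 8.18, 9.44 and 9.11).

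The other 5 regions were mostly shorter. The lung level was 28.4 CPM at chr6:177532302-177533398, where colon was next with 2.80. It was 39.3 CPM at chr10:94698446-94702788, where uterus was next with 4.96. It was 23.1 CPM at chr4:134765013-134766247, where heart was next with 2.97. Each of the other 3 organs was thus the next highest somewhere among these regions, and uterus was so in 5 of the 10. In the last 2, lung had 29.4 CPM at chr19:53208117-53210084 and 18.1 CPM at chr1:169128355-169129649, with uterus next at 3.95 and 2.66.

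**Figure D3:**
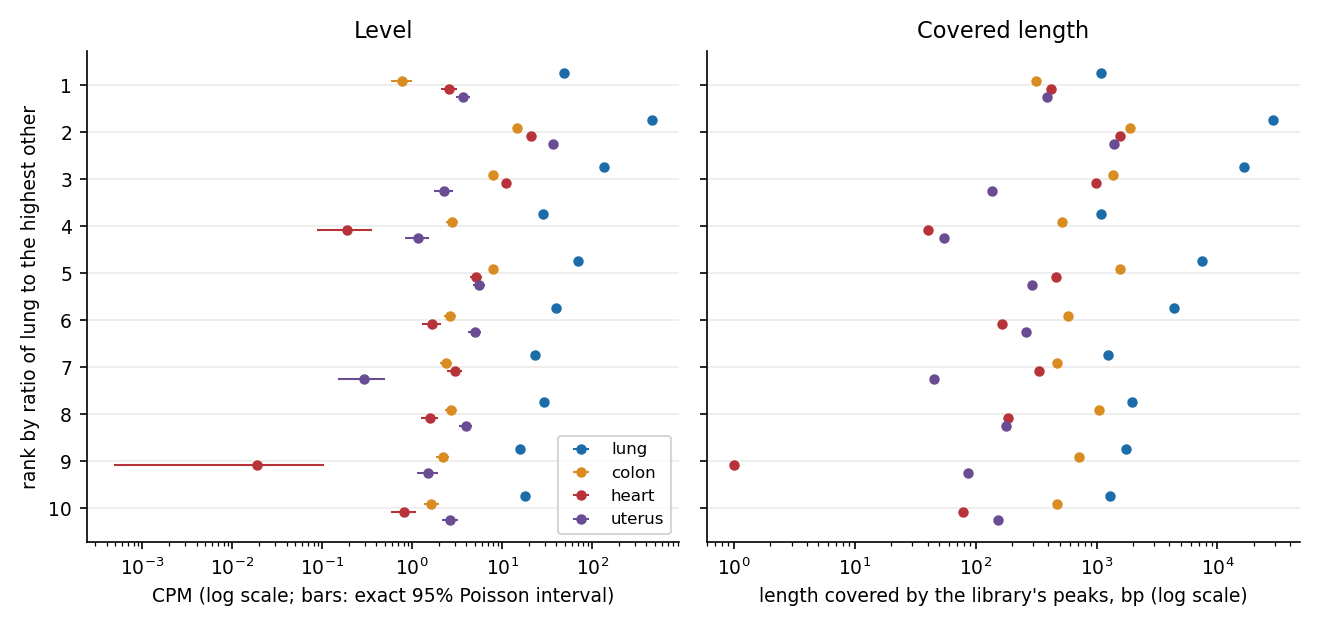
The 10 lung-high regions of largest ratio by rank, with CPM and exact 95% Poisson intervals (left, log scale) and the length covered by each library's peaks (right, log scale). Lung lies highest and longest in all 10, between 15.9 and 462.6 CPM.

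The 3 lung-high regions that also met the covered-length rule give the comparison least tied to peak length, and they were picked out after their values were seen. At chr18:147829-148608, close to the top-ranked region, lung had 42.4 CPM (40.6 to 44.2), colon 2.08 (1.72 to 2.48), heart 5.61 (4.80 to 6.53) and uterus 9.16 (8.02 to 10.4). Covered lengths were 780, 482, 440 and 434 bp, and the ratio to uterus was 4.63 in CPM and 4.004 (3.50 to 4.604) in fragments. Lung stood apart here on every scale used.

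The other 2 were marginal. At chr3:69328374-69331221, lung had 66.6 CPM, colon 7.57, heart 25.8 and uterus 31.8, a ratio of 2.10 to uterus in CPM with an interval of 1.85 to 2.17 in fragments. At chr7:131168611-131169891, lung had 35.7 CPM, colon 7.72, heart 12.0 and uterus 16.1, a ratio of 2.22 in CPM and 1.92 (1.73 to 2.15) in fragments. Their fragment intervals include the 2-fold limit, so on that scale counting error leaves undecided whether they pass it. The call was made on CPM, which a fragment interval does not bound. At chr7:131168611-131169891 the CPM ratio of 2.22 lies above the fragment interval. In CPM both regions lay clearly above each other organ in lung. Lung peaks covered 2848 and 1281 bp of these regions, against 1559 and 731 bp in uterus. Per covered kb lung had 23.4 and 27.8 CPM and uterus 20.4 and 22.0, so covered length enters these ratios.

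The most extreme lung-low regions rested on very short lung peaks and say little of the level. Of the 10 with the lowest ratio, all had a lung peak of 1 to 36 bp inside regions of 446 to 2904 bp. In 3 of them the lung peak was 1 bp long and held a count in 0 of 13117 barcodes, which, by a limit of 3 counts, allows a share of up to 0.0229% for that base. Among all 403 lung-low regions, 21 had under 20 bp of lung peak. The other 3 organs held 1.57 to 75.1 CPM in the same 10 regions.

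Lung-low regions of matched length were more even, and the 5 with the lowest ratio fell 2.73-fold to 3.31-fold below the lowest other organ. At chr11:33511864-33514287, lung had 8.03 CPM (7.32 to 8.799), colon 26.6, heart 29.6 and uterus 27.8. At chr8:69232319-69235768, lung had 10.9 CPM (10.04 to 11.7), colon 63.8, heart 32.7 and uterus 38.2. At chr1:197152388-197157676, lung had 17.7 CPM (16.6 to 18.8), colon 56.4, heart 51.1 and uterus 58.1. Lung peaks covered 1306, 1899 and 2648 bp of these regions, against 2424, 3450 and 5266 bp in colon and 1363, 1934 and 3041 bp in uterus, which enters the folds. Per covered kb lung was still lowest, with 6.15, 5.72 and 6.68 CPM. In CPM lung lay apart, below 3 organs that were close to each other at chr11:33511864-33514287 and chr1:197152388-197157676. The remaining 2, chr1:156377411-156378552 and chr19:48291919-48293505, had 6.15 and 5.62 CPM in lung and at least 15.3 CPM in each other organ.

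The regions with the highest lung level were high in every organ. The first was chr13:70949201-70961373, with 1641 CPM in lung, 984 in colon, 3475 in heart and 4181 in uterus. It was followed by chr19:1003824-1049291 with 805 CPM in lung, 499 in colon, 798 in heart and 1355 in uterus. Lung was the highest organ in 1 of the first 5, chr6:169854677-169871111, with 547 CPM against 162 in colon, 401 in heart and 317 in uterus. None of the 5 met the lung-high rule, and lung peaks covered 11104 to 44418 bp of them. In these 5 regions 72.6% to 82.7% of lung barcodes held a count.

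Lung-only regions were short and weak by comparison. Their median width was 396 bp, against 1713 bp for the regions with a peak in all 4, and their median lung level was 2.86 CPM against 21.2. Per covered kb the medians were closer, at 7.65 and 13.8 CPM. The strongest was chr13:61784478-61796651, with 84.0 CPM (81.5 to 86.5) over 12174 bp, and its neighbour chr13:61774405-61782169 had rank 4 with 59.2 CPM. Next came chr5:25177129-25182682 with 63.6 CPM, chr20:71923596-71926007 with 61.3 CPM and chr8:133313963-133316138 with 56.1 CPM. These 5 were found in 14.7% to 19.5% of lung barcodes, while the median lung-only region was found in 1.39%.

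Lung-high regions were spread over all chromosomes, with the highest share on chromosome 16. There, 43 of 1510 regions (2.85%) were lung-high, against 1.52% over all. Chromosome 13 followed with 19 of 808 (2.35%) and chromosome 10 with 27 of 1309 (2.06%). The lowest share was on X, with 2 of 534 (0.375%). In windows of 100 kb, 48 of the 350 lung-high regions shared a window with another. The positions below run from the first to the last called region in a window. The totals count 4-organ regions over the whole 100 kb, some of which can lie outside those positions. The fullest was chr16:76738844-76790786, with 4 lung-high regions of 7, and the window beside it, chr16:76819543-76877143, held 3 of 6, the region at rank 3 among them. On the same chromosome, chr16:54121946-54181874 held 3 of 4, with the region at rank 5. Lung-low regions shared windows about as often, 43 of 403, and their fullest window was chr14:1901799-1936269 with 4 of 6.

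Single lung barcodes saw only a small part of these regions. The median region with a peak in all 4 had a count in 7.63% of lung barcodes, with 5% of regions below 1.41% and 5% above 26.1%. Only 45 of the 23078 regions (0.195%) were found in over 50% of lung barcodes. The median was 8.78% for lung-high, 0.961% for lung-low and 1.39% for lung-only regions. Detection follows depth, and with each barcode thinned to 500 fragments the medians in lung were 1.01%, 1.17%, 0.122% and 0.160%. At that depth the lung-high median was 0.282% in colon, 0.354% in heart and 0.451% in uterus. The median of all 23078 regions was 0.822%, 1.09% and 1.25% in the same order, so lung was not generally better covered.

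Lung-high regions took a part of nearly every lung barcode's counts, but an uneven one. Their share had a median of 1.19% per lung barcode, a 5th percentile of 0.335% and a 95th of 1.99%. In the other libraries the medians were 0.210% in colon, 0.305% in heart and 0.297% in uterus, which the rule that chose the regions fixes in direction. Of the lung barcodes, 85.6% to 87.7% lay above the 95th percentile of each other library, and the rest overlapped with it. The spread of the share in lung (SD 0.525) exceeded the 0.214 that counting alone would give, and so it did in colon (0.165 against 0.0970). In heart and uterus (0.127 and 0.140) it came close to counting error (0.118 and 0.121). The colon share ran from 0.0658% to 0.573% between its 5th and 95th percentiles, so that relative to its level it was at least as spread as that of lung. Lung-only regions varied more still, from 1.81% of a barcode's counts at the 5th percentile to 18.0% at the 95th, with a median of 8.34%.

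**Figure D4:**
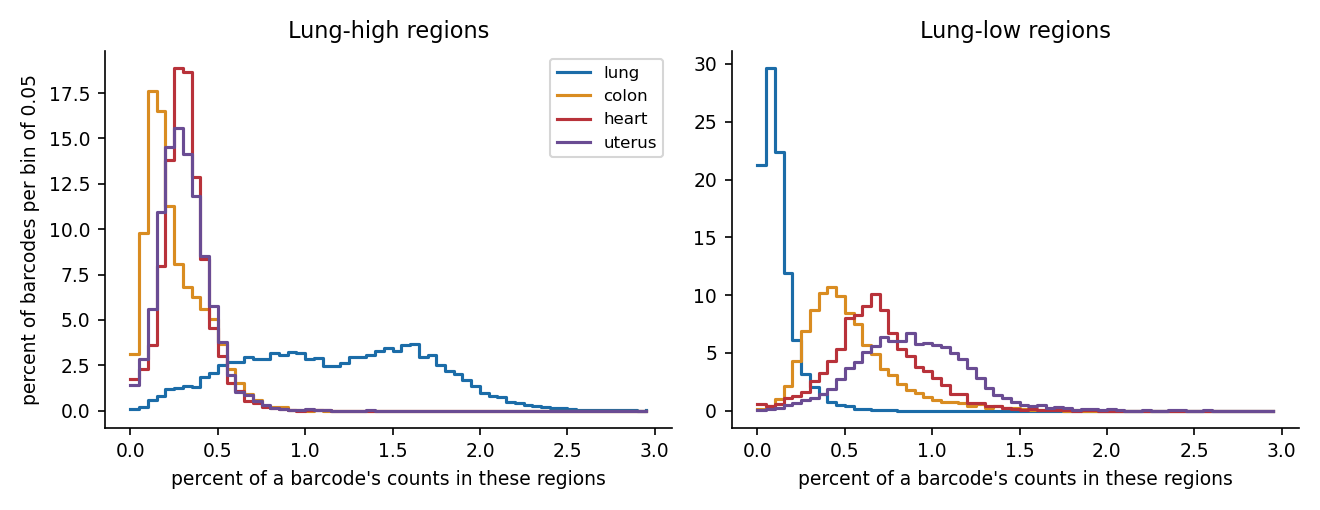
Distribution over barcodes of the percent of a barcode's counts in the 350 lung-high (left) and 403 lung-low regions (right), by library, in bins of 0.05 with values of 3 and more in the last bin. The lung curve for lung-high regions is wide, from 0.335% to 1.99% between its 5th and 95th percentiles, and the other 3 curves lie at lower shares, colon from 0.0658% to 0.573%.

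The spread between lung cells was measured over 100 groups of like barcodes, formed on chromosomes other than the one described. It is given as the coefficient of variation (CV) of detection between groups after counting error. The median CV was 0.327 over the regions with a peak in all 4, 0.658 over lung-high regions, 0.871 over lung-low and 1.10 over lung-only regions. Among regions found in 5% to 50% of lung barcodes, where detection was better matched, it was 0.247 for the 4-organ regions, 0.667 for 298 lung-high regions and 0.949 for 988 lung-only regions. The 9 lung-low regions in that band had 0.501. The match was partial, since 76 lung-only regions and 9220 4-organ regions were found in over 10% of lung barcodes. Lung-high and lung-only regions were thus more uneven within lung than the 4-organ regions as a whole. Within the band, the same order for lung-low regions rests on 9 of them. The sets were chosen by their level or peaks against the other organs. Spread was not measured in those libraries, so the unevenness is not shown to be a trait of lung.

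Among regions with a peak in all 4 that were found in 5% to 50% of lung barcodes, the most uneven shared 1 pattern. The 5 with the largest CV, from 2.06 to 2.14, all had their highest level in lung cluster 4 and the second in cluster 11 in 4 of the 5, of which chr11:2380942-2382247 had entered the clustering. The first, chr2:128279987-128281709, had 77.0 CPM in cluster 4 and 8.38 in the remaining lung barcodes, and over whole libraries 16.5 CPM in lung, 12.2 in colon, 13.2 in heart and 16.7 in uterus. The libraries lay further apart at the other 4, as at chr4:17460730-17463845 with 16.1 CPM in lung, 38.9 in colon, 2.31 in heart and 6.86 in uterus. At the other end, 51 of the 14705 regions in that band had a CV of 0 after counting error and could not be ranked. One of them, chrX:123612577-123613714, had 10.2 CPM in the lowest and 23.1 CPM in the highest cluster.

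Clustering of lung barcodes on odd-numbered chromosomes gave 17 clusters that held at least 1% of barcodes, from 2229 barcodes in cluster 1 to 139 in cluster 17. Clusters were left unnamed. Shares and counts of regions per cluster are from even-numbered chromosomes and X, which were not used to form them. The EGFL7 and JCHAIN windows were also kept out of the clustering, and a named region that entered it is marked as such. There, 195 lung-high regions took 0.468% of the counts in cluster 5 and 2.20% in cluster 6. Clusters 6 and 10 were highest, followed by 17, 2 and 1, and clusters 5, 13, 4 and 11 were lowest. Lung-only regions ranged from 2.11% in cluster 5 to 16.7% in cluster 1. In clusters 16 and 17, 98.2% and 92.1% of barcodes were among the likely doublets, and the part of doublets in their values was not tested. Clustering without likely doublets gave 15 clusters that held at least 1% of barcodes, in place of 17.

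**Figure D5:**
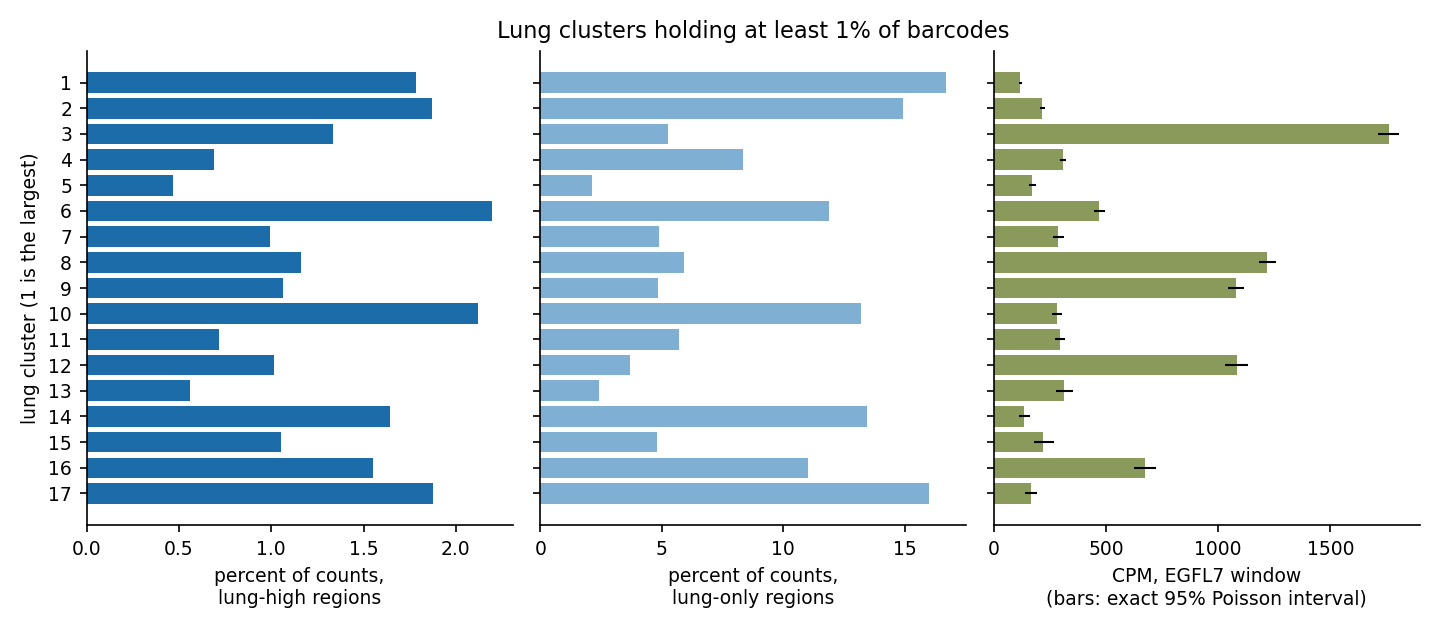
The 17 lung clusters by number, with the percent of their counts on even-numbered chromosomes and X in lung-high (left) and lung-only regions (middle), and the CPM of the EGFL7 window with exact 95% Poisson intervals (right). Clusters 6 and 10 lead on the left, clusters 1, 17 and 2 in the middle, and clusters 3, 8, 12 and 9 on the right.

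The 3 clusters that led most lung-high regions (10, 14 and 2) held the highest level of 73 of 195 regions (37.4%). The same 3 held 18.7% of barcodes and led 10.8% of all 4-organ regions, but they were picked by their lung-high regions. Cluster 14 had 216 barcodes, of which 31.5% were among the likely doublets. For all 4-organ regions the 3 leading clusters were 5, 15 and 7, with 40.3% of the regions. In the median lung-high region the highest cluster was 2.58-fold above the remaining lung barcodes, against 2.05-fold over all 4-organ regions. It was 5.41-fold over lung-only and 5.73-fold over lung-low regions, but these have low levels (medians of 2.86 and 1.75 CPM), where counting error raises the highest of 17 clusters, so these folds are not comparable with the others. A fold above 4 was seen in 29 of 195 lung-high regions (14.9%), close to the 14.4% of all 4-organ regions.

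The leading cluster differed between the named lung-high regions. The domain at chr8:22187428-22216168 had 2343 CPM in cluster 6, 1904 in cluster 2 and 60.0 in cluster 4, a range wider than that between the organs. The region chr18:128549-129632 had 157 CPM in cluster 1, 102 in cluster 10 and 2.08 in cluster 15. Its neighbour chr18:147829-148608 was also highest in cluster 1, with 121 CPM there and 20.9 in the remaining lung barcodes. At chr16:76819543-76836582 and chr16:54174439-54181874 cluster 10 led instead, with 399 and 269 CPM. The regions that were high in lung were therefore led by different clusters, among them 1, 6 and 10. By contrast, chr19:53208117-53210084 was highest in clusters 8 and 3, with 76.6 and 75.04 CPM, although its chromosome was used for the clustering.

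The 4 clusters with the lowest lung-high share were most like colon. Over 11125 regions of even-numbered chromosomes and X, Spearman's rho with the colon library was 0.901 in clusters 5 and 13, 0.86 in cluster 11 and 0.84 in cluster 4, and their lung-high share was 0.468% to 0.716%. Cluster 2 was also nearest to colon, though barely (0.741, against 0.732 with uterus), with a share of 1.87%. Clusters 3, 8, 9, 12 and 16 were most like heart (0.787 to 0.839), with a lung-high share of 1.02% to 1.55%. The clusters with the highest lung-high share, 6 and 10, had their largest rho with uterus, at 0.75 each, and so did clusters 7 and 15 (0.821 and 0.792), whose share was 0.994% and 1.05%. These are descriptions, and the points share lung's own peak calls. Lung-high regions were chosen as lower in colon, heart and uterus, so the rule in part fixes a low share in clusters like any of them.

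The EGFL7 window bears on the endothelium, since EGFL7 encodes a protein that endothelial cells secrete into the vessel wall. Lung had 481 CPM there (475 to 487), colon 92.5 (90.03 to 95.04), heart 526 (517 to 534) and uterus 218 (212 to 224). In CPM lung came next after heart, but its peaks covered 38345 bp of the window, against 14431 in colon, 34943 in heart and 11588 in uterus. Per covered kb the order was uterus (18.8 CPM), heart (15.04), lung (12.6) and colon (6.41). Most of the lung counts lay in chr15:1785716-1810366, with 330 CPM over 24513 bp in lung and 337 CPM over 22285 bp in heart. Within lung, the window had 1761 CPM in cluster 3, 1220 in cluster 8, 1082 in cluster 12 and 1081 in cluster 9, and 118 in cluster 1. The 4 clusters above 1000 CPM held 24.9% of lung barcodes and the highest level of 41 of the 195 lung-high regions (21.03%), near the 20.3% of all 4-organ regions.

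JCHAIN encodes the joining chain that links IgA and IgM molecules in plasma cells. Its window had 122 CPM in lung (119 to 125), 234 in colon (230 to 238), 116 in heart (112 to 120) and 111 in uterus (106 to 115), so that colon stood apart in CPM and lung lay close to heart and uterus. The colon peaks covered 21054 bp there, against 6307 in lung, 4746 in heart and 3079 in uterus, and per covered kb colon was lowest (11.1 CPM, against 19.4, 24.3 and 35.9). Lung held a peak in 7 regions of the window and colon in 18. The main lung regions, chr5:63593717-63595654 and chr5:63574358-63577617, were open in all 4 organs, with 60.6 and 42.6 CPM in lung and 55.4 and 59.8 CPM in colon. Across the lung clusters the window ranged only from 91.5 to 155 CPM.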

How the data were processed

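Single-cell ATAC-seq was measured in 8 libraries, of which lung, colon, heart and uterus were used, 1 library each, grouped by the tissue label. The authors ran Cell Ranger ATAC 1.2.0 (from the submitters' processing notes), with 10000 forced cells for lung and colon and the default for heart and uterus. The files hold 13117 and 12404 barcodes for lung and colon, which does not match that setting, and the difference was not resolved. They deposited, per library, raw counts of Tn5 cut ends (one value for each peak in each barcode) and the peak positions, without normalization. The study names macFas6 for its RNA data, but no source used here states the genome build of the peaks. The available gene table is of a telomere-to-telomere assembly, so no gene was placed except in the EGFL7 and JCHAIN windows, whose positions the study shows. After peaks were joined, most counts per region and barcode were even (85.0% of the lung entries), since both ends of a fragment fall in a peak. Fragments are therefore counts divided by 2 and rounded up.

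Barcodes with at least 1000 counts were kept. Peaks were joined at 1 bp of overlap, counts summed, and CPM taken over all counts in peaks. Named regions were, by rule, the 10 largest and 10 smallest ratios with at least 100 fragments, the 5 highest lung levels, the 5 strongest lung-only regions, and the 5 most and 3 least spread (ties at 0 left unranked) at 5% to 50% detection; those of matched length were added after the values were seen. Members and lists were chosen with earlier results of these data known.

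For clusters, binarized counts of peaks in at least 1% of barcodes underwent latent semantic indexing with 30 components, without those whose correlation with depth exceeded 0.75. The Leiden method ran at resolution 0.8 on 20 neighbours (leidenalg 0.10.2, igraph 0.11.9, scikit-learn 1.9.0, numpy 2.4.6, scipy 1.17.1, pandas 2.3.3, Python 3.11.15). Doublets were kept; as an alternative, 1720 lung barcodes with the highest score against simulated doublets were removed. No test was run between organs. Calls, spread and clustering were also run on simulated data, with no outcome reported here.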

Additional observations from a re-analysis of the deposited data

How the results depend on the processing

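No paired analysis was possible because each organ had 1 library, and for the same reason no replicate could be left out. Matched covered length, CPM per covered kb, the spread over groups of barcodes and another random seed were chosen after seeing the data. Of 82 recomputed values, 49 stayed within the limits set for them, and 1 turned its sign. Those limits were wide for the 350 lung-high regions. Counted as within them were 245 in fragments, 249 with peaks joined at 200 bp and 259 among the 18609 regions up to 3000 bp. So were 413 with CPM over the 4-organ regions. The median log2 ratio of lung to the mean of the others (-0.08) became 0.049 without uterus, -0.16 without colon and -0.094 without heart. It was -0.025 with CPM over the 4-organ regions, -0.061 with median-ratio size factors, -0.10 in fragments, -0.19 by share of barcodes, -0.088 with peaks joined at 200 bp, -0.086 as the mean over barcodes, -0.11 at matched covered length and -0.41 per covered kb, and the last of these and the share of barcodes shifted it by over 0.1. The 350 lung-high regions became 133 by share of barcodes (lung-low then 403), 630 without colon, 1105 without heart, 876 without uterus, 42 at 4-fold, 3 at matched covered length and 6 per covered kb. Leaving out an organ loosens the rule by construction. The 403 lung-low regions became 250 with peaks joined at 200 bp, 1762 without colon, 144 at 4-fold, 20 at matched length and 39 per covered kb. Median detection over 4-organ regions (7.63%) was 7.97% at 2000 counts per barcode, 1.01% after thinning and 6.77% without likely doublets, which follow the depth left. Without likely doublets the median CV of lung-high regions was 0.704 in place of 0.658. At resolution 0.4 the 3 leading clusters held 53.8% of the lung-high regions in place of 37.4%, with fewer clusters to share them. The planned ratio of observed to expected variance over single barcodes was 1.003 for lung-high regions, a value that presence or absence fixes by its mean. The calls were not recomputed at thinned depth. Counting error leaves calls near 2-fold undecided, and levels at the shortest lung peaks rest on a few counts. Covered length is itself part of what differs between libraries, so matching it removes calls by construction.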
